A study of Drosophila melanogaster with 2 samples.

Results

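The regions described here were the candidate binding regions of the transcription factor cropped (crp) on chromosome 4 of Drosophila melanogaster. They were all entries on that chromosome in the dm6 candidate list made from the pooled replicates, 636 of 26505. No measured value was used to choose them. Cropped was mapped by chromatin immunoprecipitation with sequencing in mixed-sex whole embryos aged 0 to 16 hours, from the transgenic strain crp-GFP, in which GFP is fused to the C terminus of crp and anti-GFP antibody was used for the precipitation. The precipitated protein was therefore a tagged transgenic copy, averaged over all embryonic tissues and ages. The single group held biological replicates 1 and 3, each with 30000 candidates, and the labels name a control experiment that was not analysed here. An optimal list that passed the irreproducible discovery rate (IDR) procedure held 1122 peaks, of which 2 lay on chromosome 4. Read counts were not part of the lists, so depth is unknown and the agreement of the replicates is the only measure of error. With 2 libraries of 1 group, an exact sign-flip test over samples cannot give a two-sided p below 0.5, and no test was made. Shares are therefore given with Wilson 95% intervals and differences between shares with Newcombe intervals. These cover counting error only, since neighbouring regions of one genome are not independent replicates.

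Chromosome 4, the dot chromosome, is the smallest autosome of the fly. Much of it is packaged as heterochromatin, with heterochromatin protein 1 and a protein specific to this chromosome, POF, and copies of the transposon INE-1 lie among its genes. Many of those genes are nonetheless active, and they include the Pax6 genes eyeless (ey) and twin of eyeless (toy). Cropped is related to vertebrate AP-4, a bHLH factor with a leucine zipper (bHLH-zip) that recognises the palindromic E-box CAGCTG, a form of the general E-box CANNTG.

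The centres of both IDR peaks are shown because they were the strongest candidates of the chromosome, and 3 further centres because they were the strongest that contained CAGCTG. The latter were picked after their values were seen. Each is from the plus strand of the dm6 reference in RefSeq and spans 50 bp either side of the summit, the position of highest signal within a candidate. Capitals mark every CAGATG or CATCTG and the TATCGATA in the IDR peaks, and CAGCTG in the other 3 centres.
ey peak, chr4:696871-696971: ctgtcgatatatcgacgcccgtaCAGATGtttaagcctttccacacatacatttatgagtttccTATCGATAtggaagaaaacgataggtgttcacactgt
Asator peak, chr4:486447-486547: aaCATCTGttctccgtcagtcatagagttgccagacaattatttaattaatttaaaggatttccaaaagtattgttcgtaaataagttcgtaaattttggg
unc-13 intron, chr4:871812-871912: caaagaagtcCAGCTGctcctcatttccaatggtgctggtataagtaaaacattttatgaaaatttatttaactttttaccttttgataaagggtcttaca
CG31998 5′ UTR, chr4:204444-204544: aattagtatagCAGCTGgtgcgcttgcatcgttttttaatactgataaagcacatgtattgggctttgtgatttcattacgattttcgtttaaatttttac
Tdg coding exon, chr4:546409-546509: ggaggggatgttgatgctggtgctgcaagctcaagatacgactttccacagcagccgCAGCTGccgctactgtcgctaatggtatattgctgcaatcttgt
Neither IDR peak held CAGCTG anywhere in its 404 bp. The 3 centres that did hold it had pooled signals of 36.11, 29.04 and 27.85, which placed them 66th, 172nd and 204th among the 636 regions.

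The stronger IDR peak lay at chr4:696719-697122 in the intergenic stretch between 2 genes that point away from each other. Its summit, at position 696921, was 768 bp upstream of the transcription start site (TSS) of ey (FBgn0005558, chr4:697689-721173, plus strand), a master regulator of eye development. It was 866 bp upstream of the TSS of myoglianin (myo, FBgn0026199, chr4:690686-696055, minus strand), a ligand of the TGF-β family, so the peak cannot be assigned to 1 of the pair from position. The authors' signal value, the measure of enrichment deposited for each peak, was 79.9 in the pooled list, 46.34 in replicate 1 and 32.58 in replicate 3. Both replicates thus had a candidate there, which was the highest on the chromosome in replicate 1 and had 4 stronger ones in replicate 3. Within 10000 bp of its summit lay 14 other pooled candidates, of which the strongest had a signal of 36.38.

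The other IDR peak lay at chr4:486295-486698 in an intron of Asator (FBgn0039908, chr4:469409-488994, minus strand), which encodes a tau tubulin kinase. Its summit was 464 bp upstream of one of the 5 annotated TSSs of the gene, at position 486033. Its signal was 66.26 in the pooled list, 32.25 in replicate 1 and 32.59 in replicate 3, and it had 1 stronger candidate on the chromosome in replicate 1 and 3 in replicate 3. Of 10 other pooled candidates within 10000 bp, the strongest had a signal of 39.4. In the whole pooled list the ey peak ranked 857th and the Asator peak 1034th by signal.

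The IDR list was bounded by signal, with 61.34 as its lowest value and 61.05 as the highest signal of any candidate outside it. The next candidate of chromosome 4 fell just under that bound at 60.2, with 29.45 in replicate 1 and 26.51 in replicate 3. It lay in a coding exon of Mitf (FBgn0263112, chr4:1198852-1224467), 62 bp downstream of a TSS, and Mitf encodes a bHLH-zip factor related to vertebrate MITF and TFEB. Among all 26505 candidates 4.23% were in the IDR set, against 0.314% (0.0863 to 1.14) of the 636 on chromosome 4. On the other autosomal arms, 2L, 2R, 3L and 3R, the share was 4.43% (994 of 22459), ranging from 3.68% on 3L to 5.21% on 2R. The difference was −4.11 percentage points (−4.47 to −3.25).

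A second comparison was made with the pericentric stretches of those arms, which are also heterochromatic: 2L beyond 22 Mb, 2R before 5.4 Mb, 3L beyond 23 Mb and 3R before 4.2 Mb. They held 894 candidates, of which 1 (0.112%) was in the IDR set. Chromosome 4 was 0.203 points above them, with an interval of −0.364 to 1.03 that includes 0. The scarcity of IDR peaks on chromosome 4 was therefore seen against the arms as a whole and not against their pericentric parts.

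Candidates of all strengths were nevertheless dense on chromosome 4. Over its 1348131 bp the pooled list had 471.8 candidates per Mb, against 206.1 on the other autosomal arms, where single arms ran from 179.9 on 2R to 236.6 on 2L. In replicate 1 the densities were 408.7 and 235.2 per Mb, from 551 candidates on chromosome 4. In replicate 3 they were 507.4 and 232.2 per Mb, from 684 candidates. Both replicates thus had more candidates per Mb on chromosome 4 than on any other autosomal arm, and replicate 3 by the wider margin. The pericentric stretches had 55.1 per Mb in the pooled list. Merging overlapping candidates left 552 regions on chromosome 4, or 409.5 per Mb against 188.3 on the other autosomal arms. Candidates covered 18.08% of chromosome 4 and 7.992% of the other arms. Since each replicate list ended at exactly 30000 entries, its lower bound was set by rank.

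**Figure D1:**
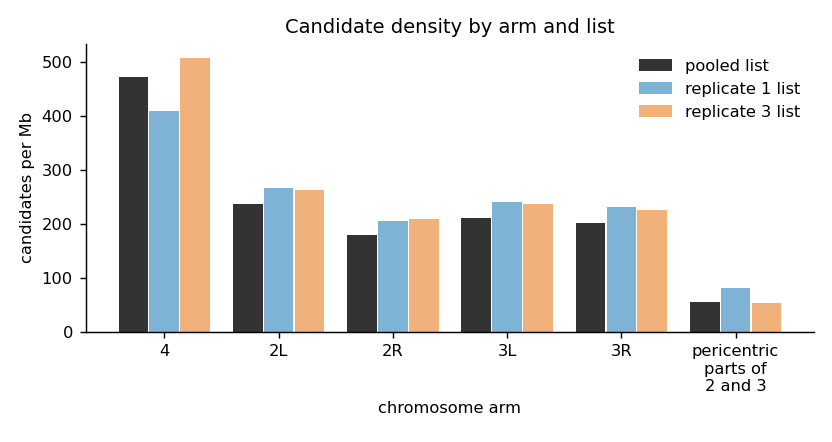
Candidates per Mb (vertical axis) for each autosomal arm and for the pericentric parts of chromosomes 2 and 3, with 1 bar for the pooled list and 1 for each replicate's list. Chromosome 4 is the highest in all 3 lists, at 471.8, 408.7 and 507.4 per Mb.

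The candidates were spread along the whole chromosome. In its 13 full bins of 100 kb the number of candidates lay between 26 and 62 (median 51), and the median signal of a bin from 23.23 to 26.75. The fewest lay in the bin that starts at 1200 kb, where annotated transposable elements take up 43.5% of the bases. The next fewest, 30, lay in the first bin, where elements take up 20.4%. The bin that starts at 200 kb had 61 candidates with 25.5% of its bases in elements. The part of elements in these counts was not tested. The last 48 kb, of which 95.4% is annotated as transposable elements, held 1 candidate. Bins were drawn after the data were seen and carry no test.

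The signal of a typical candidate on chromosome 4 was close to that elsewhere, while the strong candidates of the other arms had few counterparts. Pooled signals on chromosome 4 had a lowest value of 18.4, a median of 24.41 and a highest value of 79.9. On the other autosomal arms the median was 23.57, the medians of single arms lay between 23.51 and 23.67, and the highest value was 770.4. The quartiles were 21.34 and 29.39 on chromosome 4 against 20.53 and 28.66. The 90th percentiles were still close, at 36.27 and 37.39, but the 99th percentiles were 47.22 and 175.3. In replicate 1 the medians were 13.12 on chromosome 4 and 12.58 on the other arms, with maxima of 46.34 and 425.8. In replicate 3 they were 15.47 and 14.55, with maxima of 35.75 and 347.8. The pericentric stretches had a pooled median of 22.1 and a highest value of 112.9.

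By rank, chromosome 4 held 2.4% of all pooled candidates, 2.72% of the 10000 strongest (272) and 2.88% of the 5000 strongest (144). It held 1.88% of the 2500 strongest (47) and 0.178% of the 1122 strongest, which are the IDR set. Its share was thus slightly above its overall share among the 5000 and 10000 strongest, and below it among the 2500 and 1122 strongest. Only 26 candidates of chromosome 4 (4.09%) had a signal of 40 or more, against 8.24% on the other autosomal arms.

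**Figure D2:**
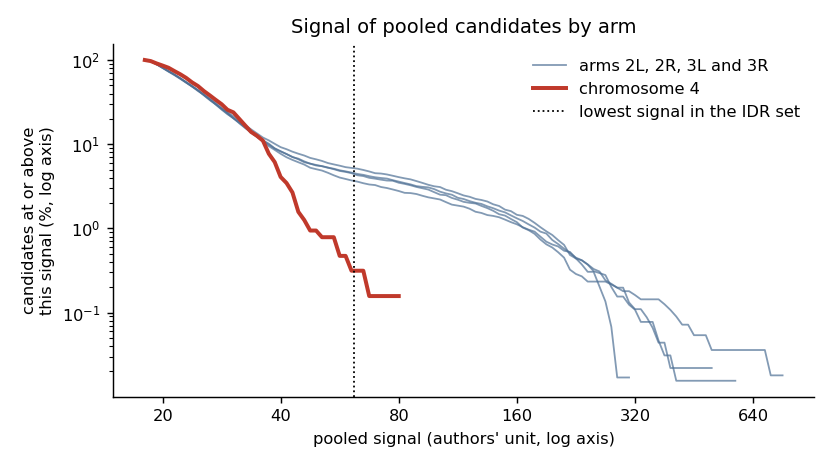
Percentage of an arm's pooled candidates (vertical axis, log scale) with at least the signal on the horizontal axis (log scale), with 1 line per arm and the lowest signal of the IDR set dotted at 61.34. The lines run together up to a signal of about 36.27, the 90th percentile of chromosome 4, beyond which the line of chromosome 4 drops below the other 4.

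Replicate recurrence was scored by position: a pooled candidate counted as found in a replicate when it overlapped a candidate of that replicate over at least 50% of the shorter interval. One replicate candidate can match 2 neighbouring pooled ones. Of all pooled candidates 31.9% were found in both replicates. On chromosome 4 the share was 32.9% (209 of 636, interval 29.3 to 36.6), and on the other autosomal arms it was 32.4%. The difference of 0.438 points had an interval of −3.15 to 4.23. Among candidates with signals between the quartiles of chromosome 4 it was −3.88 points (−8.3 to 1.16). Replicate candidates covered 15.95% (replicate 1) and 19.5% (replicate 3) of chromosome 4, against 9.243% and 8.989% of the other arms. The part of this coverage in recurrence was not tested. A further 239 candidates of chromosome 4 (37.6%) were found in replicate 3 only, 160 (25.2%) in replicate 1 only and 28 (4.4%) in neither. Presence in replicate 3 was more frequent on chromosome 4 than on the other arms, at 70.4% against 65.4%, a difference of 5 points (1.28 to 8.47). Presence in replicate 1 was 58% against 59%. In the pericentric stretches 24.6% were found in both, which was 8.25 points lower than on chromosome 4 (3.66 to 12.9).

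Recurrence rose with the signal on chromosome 4. Both replicates had 6.74% of its candidates with a signal under 20, 14.2% of those from 20 to 25, 36.2% from 25 to 30, 73.6% from 30 to 40 and 84.6% (22 of 26, interval 66.5 to 93.8) at 40 or more. The other autosomal arms gave 5.45%, 15.5%, 41.3%, 70.4% and 95.8% in the same ranges, so both rose in the same order. The pooled signal is made from both replicates, so recurrence is not independent of these ranges. The highest range is not matched in signal, since 994 of its 1851 candidates on the other arms were IDR peaks, against 2 of 26 on chromosome 4. From 40 to the IDR bound of 61.34 the shares were 83.3% on chromosome 4 (20 of 24, interval 64.1 to 93.3) and 91.5% on the other arms (89.4 to 93.2). The bounds of these ranges were chosen after the signals were seen. With an overlap of 1 bp in place of 50%, recurrence was 48% on chromosome 4 and 41.2% on the other arms, a difference of 6.75 points (2.84 to 10.7). With stricter criteria the difference had the opposite sign and an interval that included 0, at −1.65 points for an overlap of 80% (18.1% against 19.7%) and −2 points for summits within 100 bp (20.6% against 22.6%). The dm3 lists gave −2.78 points. Candidate density differed between these arms as well, and its part in the 6.75 points was not tested.

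The replicates' lists are on scales of their own, with medians over all arms of 12.52 in replicate 1 and 14.49 in replicate 3, so a ratio between them includes that offset. At the 209 candidates found in both replicates the median signal was 14.02 in replicate 1 and 16.53 in replicate 3. Replicate 3 was higher at 149 of them (71.3%), with a median log2 ratio of 0.268 and an SD of 0.478 over candidates. On the other autosomal arms it was higher at 61.6% of 7282. Across these 209 sites, which share the same pair of libraries, log2 signals correlated weakly (Pearson's r = 0.184, Spearman's rho = 0.109), against 0.777 and 0.453 on the other arms. The pericentric stretches were closer to chromosome 4, at 0.256 and 0.108 over 220 sites, with replicate 3 higher at 68.6% of them. Below a pooled signal of 40, r was −0.0523 over 187 sites on chromosome 4 and 0.118 over 5509 sites on the other arms. These sites were taken because both replicates had a candidate there, and a bound on the pooled signal, which is made from both, itself lowers a correlation between them.

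**Figure D3:**
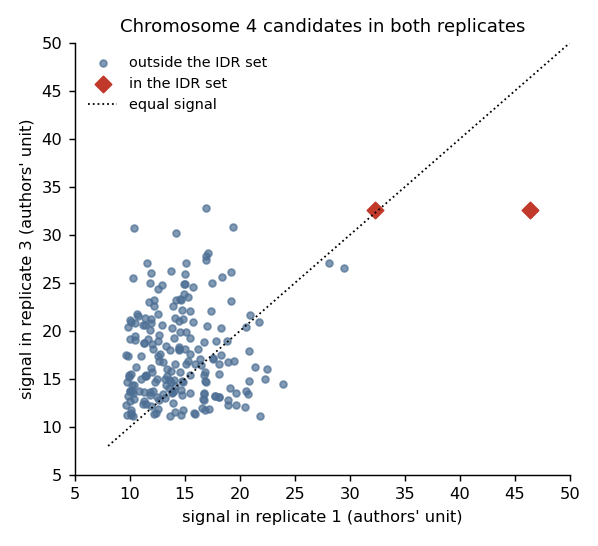
Signal in replicate 1 (horizontal axis) and replicate 3 (vertical axis) of the 209 chromosome 4 candidates found in both, in the authors' unit, with diamonds for the 2 IDR peaks and a dotted line for equal values. Both IDR peaks exceed 32 in each replicate, and most other points lie above the line of equal values, with no clear trend among them.

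Candidates of chromosome 4 were less often near TSSs of protein-coding genes than those of the other autosomal arms. Of all pooled candidates 30.3% had a summit within 1000 bp of such a TSS. On chromosome 4 the share was 16.4% (104 of 636, interval 13.7 to 19.4), against 30.6% on the other autosomal arms, where single arms ran from 28.6% to 34.4%. The difference was −14.3 points (−17 to −11.2). It was present in each replicate's own list, at 14.9% against 28% in replicate 1 and 20% against 31.2% in replicate 3. Within 200 bp lay 4.25% (27) on chromosome 4 and 12% on the other arms. Median distances from a summit to the nearest TSS were 4570 and 2526 bp.

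The sequence near TSSs also differed in amount. The 1000 bp either side of TSSs make up 15.22% of the bases of chromosome 4, close to its 16.4% of summits, and 20.44% of those of the other arms, well below their 30.6%. The pericentric stretches had 8.05% of summits near a TSS from 1.969% of their bases. Against them the direction was the opposite, with chromosome 4 higher by 8.3 points (4.98 to 11.8).

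On the other arms the near-TSS share rose with the signal, and on chromosome 4 no such rise was seen. Near-TSS shares on the other autosomal arms were 23.1%, 24.5%, 29%, 33.6% and 76.9% from the lowest to the highest signal range. On chromosome 4 they were 21.3%, 16.1%, 13%, 15.5% and 23.1%, the last being 6 of 26 (11 to 42.1). From 40 to 61.34, where the signals are closer to matched, the shares were 16.7% (4 of 24, interval 6.68 to 35.9) and 56.8% (53.5 to 60.1). Candidates near a TSS had a median signal of 23.5 on chromosome 4 and those farther away 24.58. On the other arms the order was the reverse, at 25.76 and 22.91. Of the 104 near-TSS candidates of chromosome 4, 2 (1.92%) were in the IDR set, against 13.6% of 6883 on the other arms.

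**Figure D4:**
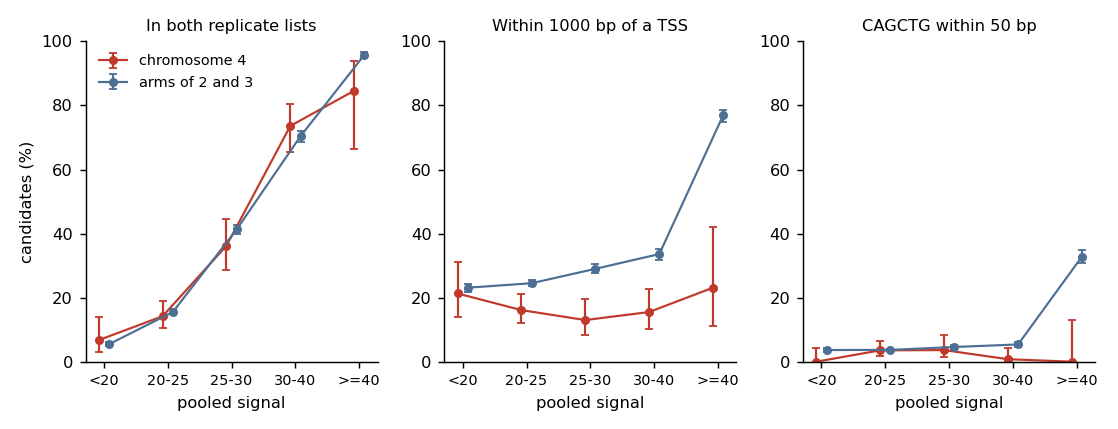
Share of candidates (vertical axes, percent) found in both replicates, within 1000 bp of a TSS, and with CAGCTG within 50 bp of the summit, by range of pooled signal (horizontal axes), for chromosome 4 and the arms of chromosomes 2 and 3, with Wilson 95% intervals. Recurrence rises with the signal in both, to 84.6% on chromosome 4 and 95.8% on chromosomes 2 and 3 at 40 or more. The pooled signal is made from both replicates, so recurrence is not independent of it. On chromosomes 2 and 3 the other 2 shares rise to 76.9% and 32.8% at signals of 40 or more. On chromosome 4 they are 23.1% and 0% there.

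CAGCTG was rare at the summits of chromosome 4, as it is in the sequence of the chromosome. Both strands read the same for this palindrome, and a centre counted when the whole hexamer lay within 50 bp of the summit. Of all pooled candidates 6.44% had it. On chromosome 4 the share was 2.36% (15 of 636, interval 1.43 to 3.85), against 6.48% on the other autosomal arms, a difference of −4.12 points (−5.1 to −2.59). Of all tiles of the same width 2.216% held CAGCTG on chromosome 4 and 4.258% on the other arms. In flanks lying 300 to 350 bp away from these summits the shares were 1.42% and 4.07%. The pericentric stretches had 2.46% at summits and 2.374% of tiles. Chromosome 4 is also poorer in G and C, at 35.25% against 42.17%, and the part of base composition in the difference was not tested.

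The difference in CAGCTG varied with the signal. Among candidates within the middle range of chromosome 4 signals, from its lower to its upper quartile, 4.4% had it on chromosome 4 and 3.91% on the other arms, a difference of 0.49 points (−1.32 to 3.36). At a signal of 40 or more, 0 of 26 on chromosome 4 had it (upper bound 12.9%), against 32.8% on the other arms. From 40 to 61.34 it was 0 of 24 (upper bound 13.8%) against 14.4% (12.2 to 16.9). The 15 candidates with CAGCTG had a median signal of 23.32 and a highest of 36.11, 3 were found in both replicates (20%), and none was in the IDR set or in a transposable element. Of all 636 candidates of the chromosome 32.9% were in both replicates, 0.314% in the IDR set and 15.9% in transposable elements. The 1455 candidates with CAGCTG on the other arms had a median signal of 31.16. Of these, 58.2% were in both replicates and 33.3% in the IDR set. Near TSSs 3 of 104 on chromosome 4 had CAGCTG (2.88%), against 12.6% on the other arms. CACGTG, the palindromic E-box of the Myc family, was in 0.786% of chromosome 4 centres and 1.1% of the others. TATCGATA, the core of the DNA replication-related element, was in 7 centres of chromosome 4 (1.1%), that of the ey peak among them, and in 0.726% of the others. Such matches describe the sequence and do not show which protein was bound.

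By class of gene annotation, summits on chromosome 4 followed the composition of the chromosome. Introns held 295 of them (46.4%), coding exons 128 (20.1%, interval 17.2 to 23.4), intergenic sequence 114 (17.9%), 3′ UTRs 60 (9.43%), 5′ UTRs 28 (4.4%) and non-coding exons 11 (1.73%). Introns make up 46.13% of the bases of chromosome 4, coding exons 18.7% and intergenic sequence 21.05%. Its 3′ UTRs make up 8.081%, 5′ UTRs 3.498% and non-coding exons 2.541%. The other arms departed from their composition at coding exons, with 9.27% of summits on 16.09% of bases. They departed the other way at 5′ UTRs (5.74% of summits on 3.295% of bases) and 3′ UTRs (8.25% on 5.303%). Coding exons thus held 10.9 points more of the summits on chromosome 4 than on the other arms (7.9 to 14.2). The shares were 20.9% against 11.2% in replicate 1 and 17.8% against 10.5% in replicate 3. Intergenic summits were fewer by 11.8 points on chromosome 4, and introns differed by 1.41 points (−2.48 to 5.35). The intron difference was larger in each replicate's own list, at 3.18 points in replicate 1 (−1 to 7.4) and 4.45 points in replicate 3 (0.668 to 8.24), where the interval excludes 0.

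**Figure D5:**
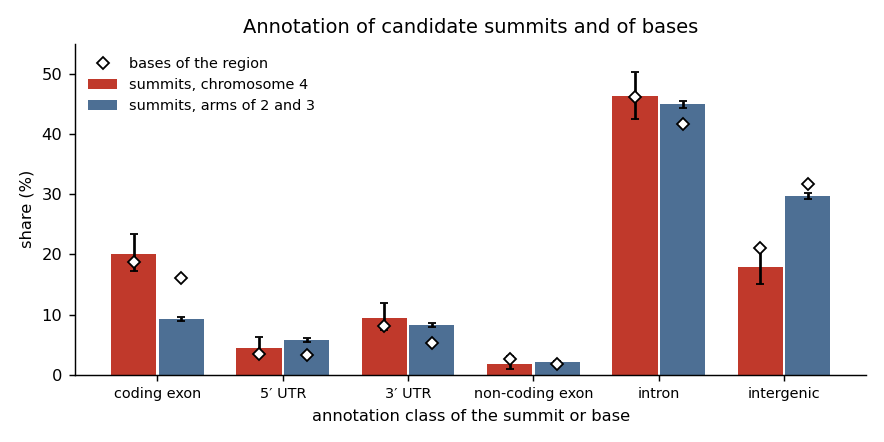
Share of candidate summits (bars, percent, with Wilson 95% intervals) and of bases (diamonds) in each annotation class, for chromosome 4 and the arms of chromosomes 2 and 3. On chromosome 4 the bars stand close to the diamonds, as at coding exons with 20.1% and 18.7%, whereas on the other arms the coding exon bar is at 9.27% and its diamond at 16.09%.

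Annotated transposable elements held 15.9% of the summits of chromosome 4 (13.2 to 18.9) from 24.77% of its bases. On the other autosomal arms they held 1.31% of summits from 5.792% of bases, and in the pericentric stretches 13.2% from 15.81%. INE-1 accounted for 69 summits, or 10.8% of all summits, and its 344 annotated copies cover 7.22% of the chromosome. The 1360 element, whose copies cover 3.79%, held 9 summits. HeT-A, a retrotransposon of telomeres, covers 3.28% and held 1. Candidates inside elements had a median signal of 25.26 and 31.7% were found in both replicates, against 24.32 and 33.1% outside. How reads that map to many copies were counted is not given in the sources used here, and the part of repeats in the density of chromosome 4 was not tested.

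The 20 strongest candidates of chromosome 4 ran from 42.05 to 79.9. Of these, 18 were found in both replicates, against 32.9% of all 636 candidates of the chromosome. The pooled signal is made from both replicates, so this count is not independent of how the 20 were picked. Of the 20, 5 lay within 1000 bp of a TSS, 14 lay over 3000 bp from one, none held CAGCTG within 50 bp, and 5 lay in INE-1 copies. The 20 strongest of each other autosomal arm had lowest values between 215.5 and 256.8, with 19 or 20 near a TSS and 11 to 16 with CAGCTG. On each of those arms all 20 were found in both replicates. Those arms have longer lists, and 20 candidates are 3.14% of chromosome 4. The strongest 3.14% of each of those arms, 143 to 203 candidates, had lowest values between 71.45 and 99.32, with 94.9% to 99.3% near a TSS and 47.6% to 60.6% with CAGCTG. On chromosome 4 the shares were 25% and 0%.

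After the IDR peaks and Mitf, the next strongest was 1033 bp upstream of fd102C, a forkhead factor gene. It lay in an INE-1 copy with a pooled signal of 55.93, 19.37 in replicate 1 and 30.77 in replicate 3. Cals, which encodes the synaptic membrane protein calsyntenin, had 3 of the 20 in its exons. The strongest of them, in the 3′ UTR, had a pooled signal of 55.76, 28.11 in replicate 1 and 27.05 in replicate 3. The value of replicate 1 was slightly the higher at Mitf and at this Cals site, and that of replicate 3 at fd102C.

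The candidate near zfh2, a zinc finger homeodomain gene, lay 3933 bp upstream of its TSS with a pooled signal of 47.26, and a neighbouring one had 43.73. At the first, replicate 1 had 16.89 and replicate 3 had 32.76. A candidate in a coding exon of yellow-h, a member of the yellow gene family, lay 219 bp downstream of the TSS and had 47.15, with 14.17 in replicate 1 and 30.14 in replicate 3. In the intron of Taf3, a subunit of the general factor TFIID, a candidate 448 bp from the TSS had 43.63. There replicate 1 had 11.77 and replicate 3 had 24.96. The value of replicate 3 was thus the higher at each of these sites, as at 14 of the 18 found in both, and none of the sites was in the IDR set. The others of the 20 included introns of dati, Syt7, Cadps, toy, bt and sv, the 3′ UTR of gw and a coding exon of PMCA. The candidates in Syt7 and PMCA, with 45.57 and 43.49, had no match in replicate 1.

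By gene, candidates were widespread on chromosome 4. Of all 13968 protein-coding genes 50.7% had a pooled candidate within 1000 bp of a TSS, and 27% had one found in both replicates. On chromosome 4 the first held for 64 of 80 genes (80%, interval 70 to 87.3) and the second for 33 (41.2%, 31.1 to 52.2). On the other autosomal arms the shares were 52.2% and 28.3%. An IDR peak in this window was found for 3 genes of chromosome 4, ey, myo and Asator (3.75%), against 11.8% on the other arms. Neighbouring genes can share a candidate, and 8 of the 64 shared their strongest one with another gene. A larger share of the genes of chromosome 4 thus had a near-TSS candidate, and a smaller share had an IDR peak. The amount of near-TSS sequence per gene also differs between the arms. Its part in these shares, and that of candidate density, was not tested. The strongest near-TSS candidate of a gene had a median signal of 25.98 on chromosome 4 and 28.58 on the other arms.

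Within gene bodies, 78 of the 80 genes held a summit, with a median of 5.12 per 10 kb. The exceptions were the short genes Mpv17 and Arf4. The most were found in pan, the TCF factor of Wnt signalling, with 25, of which 7 were found in both replicates. PMCA, a plasma membrane calcium pump, had 23 with 8 in both, and unc-13, required for priming of synaptic vesicles, had 22 with 12 in both. Sox102F, a SoxD factor, had 21 with 3 in both, and zfh2 had 20 with 6 in both. These are long genes, from 30.73 to 44.95 kb, and their summits per 10 kb lay between 4.94 and 7.49. For scale, 32.9% of all 636 candidates of the chromosome were found in both replicates. The whole chromosome had 471.8 candidates per Mb, and no count for gene bodies of the other arms is given here.

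Groups of chromosome 4 genes were drawn up with earlier results of these data known, so their counts carry no test. Genes with a candidate are read against the 64 of 80. Genes with one found in both replicates are read against the 33 of 80 (41.2%). The groups are small, with 3 to 15 genes each. Of 15 genes for transcription factors and cofactors 11 had a near-TSS candidate, 7 had one in both replicates and 1, ey, had an IDR peak. The strongest after ey and Mitf was at ci, the effector of Hedgehog signalling, 898 bp upstream of a TSS with a pooled signal of 39.93, 21.39 in replicate 1 and 16.25 in replicate 3. Sox102F followed with 37.95, found in replicate 3 only with 26.53. The 4 without a near-TSS candidate were zfh2, toy, fd102C and Hcf, although toy had 14 summits in its body and zfh2 had 20. The candidate upstream of fd102C described above, with a pooled signal of 55.93, lay 1033 bp from the TSS, just outside the 1000 bp counted here.

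All 3 genes for TGF-β ligands had a near-TSS candidate found in both replicates. The peak at myo was that shared with ey. Actbeta, an activin-like ligand, had a candidate 585 bp upstream of its TSS with a pooled signal of 41.46, 14.55 in replicate 1 and 15.69 in replicate 3. That at mav was weaker, at 21.74. Of 4 genes for guidance receptors and ligands 3 had a candidate, of which that of PlexA, a semaphorin receptor, was found in both replicates. It lay 229 bp upstream of the TSS with 39.89, 15.46 and 17.56 in the pooled list, replicate 1 and replicate 3.

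Of 7 genes for synapse and excitability 6 had a candidate, and 1 (unc-13) had one found in both replicates. It lay 41 bp from a TSS with a pooled signal of 32.1. All 3 genes for muscle and cytoskeleton had a candidate, and that near Zyx, at 25.92, was in both. Of 10 housekeeping genes 8 had a candidate and 4 had one in both replicates, RpS3A, Pur-alpha, gw and ATPsynbeta, with pooled signals from 22.16 to 31.07. Of 5 genes for signalling adaptors and kinases 3 had a candidate, Asator, PIP4K and Dyrk3, of which the first 2 were in both. In all 7 groups together the IDR peaks were the 2 described above.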

How the data were processed

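The authors deposited 8 peak lists, 4 in dm6 and 4 in dm3, described per the labels as candidates of each replicate, candidates of the pooled replicates and an optimal IDR set. The signal is the authors' own value per peak, used to describe, rank or filter peaks within a list, and set side by side between the replicates' lists without rescaling. Another deposited column, the distance in bp from peak start to summit, placed the summits. For the aligner, the peak caller and the IDR threshold, names and versions are not given in the sources used. No column of another sample was present.

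Coordinates are dm6, 1-based. The bases printed and searched came from the RefSeq dm6 assembly, and TSSs, gene classes and transposable elements from the Ensembl release 115 annotation. A base in several classes took the first of 5′ UTR, 3′ UTR, coding exon, non-coding exon and intron. All listed symbols matched the annotation, 1 of them (Thd1, now Tdg) through a synonym. Named genes were those nearest the IDR peaks and the 20 strongest candidates, the 5 with most summits, and up to 4 members of each gene group. Genes holding a top site (gw, bt), the hosts of the CAGCTG centres (such as CG31998), the group members without a candidate and the pair with no summit (Mpv17, Arf4) were named after their values were seen. Members, groups and alternatives were chosen with earlier results of these data known. Matching, distances and motif counts were tested on simulated data. Python 3.11.15, NumPy 2.4.6, pandas 2.3.3, SciPy 1.17.1 and matplotlib 3.10.9 were used.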

Additional observations from a re-analysis of the deposited data

How the results depend on the processing

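There were 52 alternatives for 7 comparisons of chromosome 4 with the other autosomal arms. Of these, 32 stayed within the spread of the reported value, 17 moved beyond it and 3 were reversed. That spread was the interval of a difference between shares, or the SD between the replicates' lists for log2 ratios. A difference between shares counted as reversed only where the reported interval excluded 0 and the sign changed. The reported intervals for recurrence and introns included 0. Changes of sign in these, such as −3.88 and −3.28 below, were therefore counted as within or beyond the spread. Against the pericentric parts alone, the log2 ratio of median signals went from 0.0503 to 0.143 and that of candidates per Mb from 1.19 to 3.1. The difference in percentage points became 0.203 for the IDR share (−0.364 to 1.03) and 8.3 for the near-TSS share (4.98 to 11.8), both reversed. It became 8.25 for recurrence, −3.28 for introns and −0.102 for CAGCTG. Within the middle range of chromosome 4 signals the differences were 0.49 for CAGCTG (−1.32 to 3.36), reversed, and −3.88 for recurrence. Of the 3 reversed differences, only that of the near-TSS share had an interval that excluded 0. The dm3 lists gave −7.85 for the IDR share and 0.0036 for the signal ratio, and the strongest candidate of each merged region gave 0.0926 for that ratio. An overlap of 1 bp gave 6.75 for recurrence, a 500 bp window −10.1 for the near-TSS share, and a window of 100 bp either side −6.84 for CAGCTG. Among 4 alternatives added after seeing the data, CAGCTG differed by −9.73 near TSSs and by −2.15 outside the IDR set. With 1 replicate left out the signal ratio ran from 0.0606 to 0.0883, the density ratio from 0.797 to 1.13, the near-TSS difference from −13.1 to −11.1, the intron difference from 3.18 to 4.45 and the CAGCTG difference from −4.95 to −3.1. The causes were not tested. No paired analysis was possible because the series holds a single group. Depth is unknown, so a limit of detection cannot be given.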
